A study of Homo sapiens with 24 samples.

Results

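NRF2 and its antioxidant target genes were followed in chondrocytes that differed in the kinase WNK2 and in the osmolarity of their medium. The 10 genes were chosen by symbol, as the transcription factor gene NFE2L2, its inhibitor KEAP1 and 8 genes of glutathione, thioredoxin, quinone and heme handling (TXNRD1, SRXN1, GCLM, GCLC, SLC7A11, NQO1, HMOX1 and OSGIN1). All 10 matched 1 of the 62703 gene identifiers in the count tables, and 9 of the 10 were among the 16600 genes that passed the filter on low counts. SRXN1 was listed at 0 reads in all 24 libraries.

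RNA-seq was performed on T/C-28a2 cells, an immortalised line of human chondrocytes, in 6 groups of 4 libraries. WT Ctr and WT Sor were parental cells kept for 7 days in isotonic medium (300 mOsm) or in medium with 100 mM sorbitol (400 mOsm). WNK2- Ctr and WNK2- Sor were cells of 1 clonal line, made by electroporation of CRISPR/Cas9 complexes that remove exon 2 of WNK2, kept in the same media. WNK2 trans Ctr and WNK2 trans Sor were parental cells transfected with a WNK2 expression plasmid by a lipid reagent for 48 h before the same 7 days. The plasmid was compared with untransfected cells, so an effect of WNK2 cannot be told apart from one of transfection, and an effect of the exon 2 deletion cannot be told apart from one of cloning. All cells received medium with 2% serum. The comparisons ask how NRF2 target genes differ with loss of WNK2, with chronic hyperosmotic stress, and with added WNK2.

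NRF2, the protein made from NFE2L2, is a transcription factor that is held at low levels because KEAP1 delivers it to a cullin ubiquitin ligase for degradation. Oxidants and electrophiles modify cysteines of KEAP1, NRF2 then accumulates, pairs with small MAF proteins and binds antioxidant response elements in the DNA of genes that make glutathione, reduce thioredoxin, detoxify quinones and break down heme. NRF2 activity is therefore set mainly at the level of its protein, which RNA-seq does not measure, and in cartilage the pathway is known for limiting oxidative damage to chondrocytes.

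The sequences shown here are promoter matches to the short core that NRF2 is known to bind, and they show which of the genes described below carry it close to the start. RefSeq promoter windows on GRCh38.p14, from 250 bases before to 50 bases after each transcript start, were at hand for 8 of the 10 genes (11 windows, since NFE2L2, KEAP1 and TXNRD1 have a pair each), and HMOX1 and SLC7A11 are not shown. Both strands were searched for the core of the antioxidant response element, TGACNNNGC, which was found in 4 of the 11 windows and in 3 of the 8 genes, KEAP1, TXNRD1 and GCLM. The same core was found in 13.3% of all 35116 promoter windows. Capitals mark the match in its 29 bases, which are printed 5′ to 3′ on the strand of the gene, so that a match on the other strand reads as its reverse complement. Positions are those of the first base of the match relative to the transcript start.
KEAP1 first element (chr19:10502808-10502836, minus strand, position −54): gacttttattgTGACACGGCgggcgcccg
KEAP1 second element (chr19:10502785-10502813, minus strand, position −31): cgcccggctctGCTTAGTCAtggtgacct
TXNRD1 first element (chr12:104215669-104215697, plus strand, position −99): tacacgggctaTGACTTCGCtgttgtcac
TXNRD1 second element (chr12:104215760-104215788, plus strand, position −8): ggcgtccttcgGCTCCGTCAgttcccaca
TXNRD1 element of the other promoter (chr12:104286919-104286947, plus strand, position −102): agtggatttctGCTTTGTCAttctgactc
GCLM element (chr1:93909447-93909475, minus strand, position −34): ctacgatttctGCTTAGTCAttgtcttcc
The second KEAP1 match and the GCLM match share the same 9 bases. The windows of NFE2L2, GCLC, NQO1, SRXN1 and OSGIN1 held no match to these letters, which says nothing of elements farther away. The 1 match to the AP-1 site TGANTCA, present in 7.71% of all windows, lay in OSGIN1, whose window lies inside the gene as GENCODE 29 draws it. AP-1 is a factor with a related core. No window of the members held the amino acid response core TGATGNAA, which binds ATF4 and was present in 3.62% of all windows.
OSGIN1 AP-1 site (chr16:83953131-83953159, plus strand, position −97): acgggcccctgcTGACTCAcgcttatgaa

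Levels are given as CPM, the counts per 1000000 of a library's total after scaling by TMM factors. Library totals ran from 14153002 to 25664619 counts, with 18578564 to 25664619 in the WNK2- libraries and 14153002 to 23239491 in the others. WNK2 itself was read as a check of the labels. It measured 169, 78.5, 116 and 186 CPM in the libraries labelled WT Ctr but 16.1, 12.9, 9.98 and 15.8 CPM in those labelled WNK2 trans Ctr, which goes against the label of added WNK2. With sorbitol the order followed the labels, with 15.8, 17.4, 17.4 and 15.4 CPM in WT Sor and 207, 122, 145 and 187 CPM in WNK2 trans Sor. The WNK2- libraries held 16.9 to 22.8 CPM, counted over the whole gene, so transcripts with and without exon 2 are not separated. Every comparison with isotonic parental cells below is therefore one between libraries labelled WT Ctr or WNK2 trans Ctr.

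Of 10 chondrocyte markers, SOX9 was listed at 0, COL9A1, COL11A1 and SOX6 did not pass the filter, and HAPLN1, at 12.8 to 151 CPM, made up most of the sum. That sum lay at 81.2 to 104.5 CPM in the WT libraries and at 18.6 to 24.3 CPM in the WNK2- libraries, and at 63.1 to 82.2 CPM in WNK2 trans Ctr and 108 to 156 CPM in WNK2 trans Sor. KRT8 and KRT18 dominated the epithelial list (608 to 1240 CPM over all libraries), the endothelial list was highest in WNK2 trans Sor (99.1 to 106 CPM, against 24.3 to 67.0 CPM elsewhere). Of the 5 leukocyte markers PTPRC and CD3E held at most 13 and 3 reads and CD68 was listed at 0, while CD14 (1.77 to 21.9 CPM) and ITGAM (0.13 to 3.66 CPM) were measured. The leukocyte sum lay at 3.08 to 4.98 CPM in the WNK2- libraries, 7.60 to 14.0 CPM in the WT libraries, 14.0 to 22.7 CPM in WNK2 trans Ctr and 5.70 to 8.26 CPM in WNK2 trans Sor. The chondrocyte, endothelial and leukocyte lists thus moved with the groups, and their part in the results below was not tested. In bulk RNA, fewer cells of a kind and less RNA per cell cannot be told apart.

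Per kilobase of exon, and averaged over the 24 libraries, TXNRD1 was the highest of the 9 genes (54.2 CPM per kb), followed by NQO1 (41.1), KEAP1 (38.9), NFE2L2 (22.5), GCLM (12.6), HMOX1 (10.4), GCLC (4.35), OSGIN1 (2.75) and SLC7A11 (2.12).

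**Figure D1:**
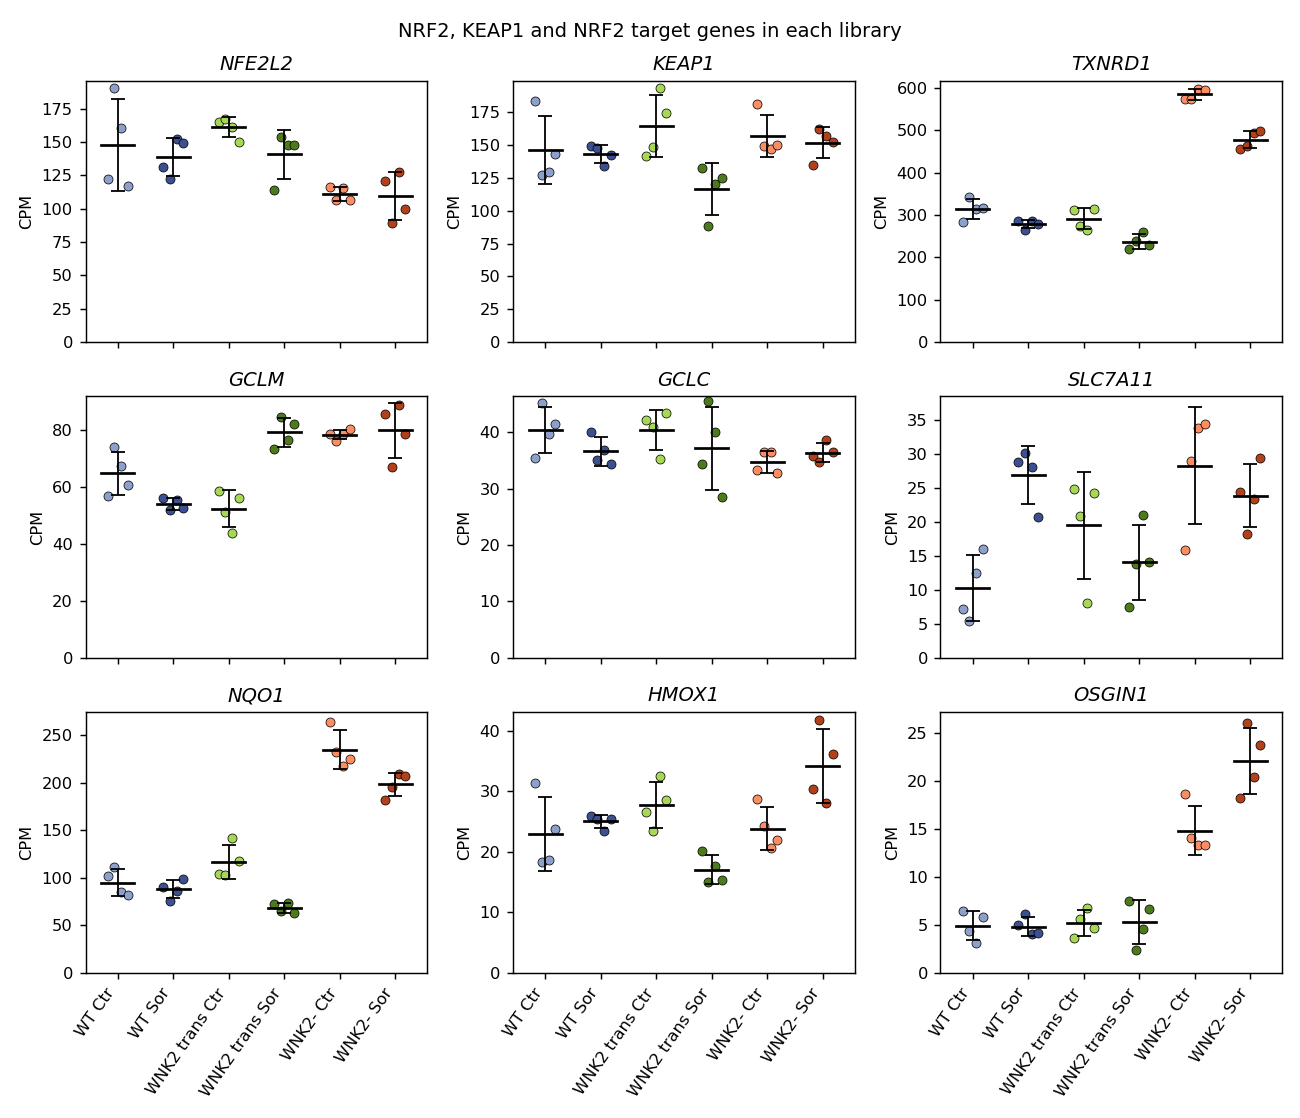
Level of each of the 9 measured genes in CPM (vertical axes, from 0) in the 4 libraries of each group (points), with the group mean (bar) and SD (whiskers). TXNRD1, NQO1 and OSGIN1 form a high pair of WNK2- groups above all 16 parental libraries, while the ranges of GCLC overlap from each group to the next in order of level.

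The WNK2- clone expressed more TXNRD1, NQO1 and OSGIN1 than parental cells in both media, by 1.72 to 4.6-fold, and less NFE2L2. GCLM was higher than in WT cells in both media as well, while SLC7A11 passed the test in isotonic medium and HMOX1 in sorbitol. In sorbitol the GCLM range of WNK2- cells (67.1 to 88.8 CPM) overlapped that of the parental WNK2 trans Sor libraries (73.4 to 84.8 CPM). In isotonic medium 6 of the 9 tested genes changed, 5 higher and 1 lower, where 42.1% of all 16600 genes tested changed (20.7% higher and 21.5% lower). In sorbitol 6 of the 9 changed, again 5 higher and 1 lower, where 46.3% of all genes changed (23.7% higher and 22.7% lower). The median log2 difference of the 9 genes was 0.28 in isotonic medium and 0.45 in sorbitol, beside 0.0020 and 0.02 over all genes tested. The comparisons share control libraries, so they are not independent of each other. The tests are edgeR's quasi-likelihood tests with Benjamini-Hochberg adjustment over all genes tested in a comparison, at a threshold of 0.05, and log2 changes are given ± their standard error. The 95% intervals are not adjusted for the number of genes.

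NFE2L2 (ENSG00000116044, chromosome 2, 177227595 to 177392697, minus strand in GENCODE 29 on GRCh38), which encodes NRF2, measured 123, 191, 161 and 117 CPM in the libraries labelled WT Ctr and 116, 107, 115 and 107 CPM in WNK2- Ctr. The WNK2- Ctr libraries were all lower than the lowest WT Ctr library, although WT Ctr replicate 4 came within 2 CPM of them. The log2 change was −0.41 ± 0.13 (adjusted p = 0.0147), and without WT Ctr replicate 2, the highest, it was −0.27 (adjusted p = 0.0908). With sorbitol the levels were 131, 122, 152 and 149.5 CPM in WT Sor and 121, 89.2, 128 and 99.6 CPM in WNK2- Sor. The ranges overlapped in this medium, and the log2 change was −0.34 ± 0.13 (adjusted p = 0.0361). It missed the threshold without WT Sor replicate 3 or 4 or WNK2- Sor replicate 2 or 4 (−0.32 to −0.26, adjusted p = 0.0728 to 0.135) and with upper-quartile factors (adjusted p = 0.0525). The 5′ end of NFE2L2 overlaps the neighbouring gene AGPS on the opposite strand, and the strand setting of the counting is not given.

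KEAP1 (ENSG00000079999, chromosome 19, 10486120 to 10503741, minus strand), the adaptor that marks NRF2 for degradation, did not pass the test between genotypes. It measured 183, 127, 129.5 and 143 CPM in WT Ctr and 181, 149, 147 and 149.7 CPM in WNK2- Ctr, with 1 high library in each group. In sorbitol it measured 149, 148, 134 and 143 CPM in WT and 135, 162, 157 and 153 CPM in WNK2- cells. The ranges overlapped in both media, and the log2 differences were 0.10 (95% interval −0.14 to 0.35, adjusted p = 0.532) and 0.08 (95% interval −0.16 to 0.33, adjusted p = 0.629). Adjusted for GC content and length of the genes, the difference in sorbitol was 0.33 and passed the threshold (adjusted p = 0.000424).

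TXNRD1 (ENSG00000198431, chromosome 12, 104215779 to 104350305, plus strand) encodes the cytosolic thioredoxin reductase, which keeps thioredoxin reduced at the cost of NADPH. It measured 284, 342, 314 and 317 CPM in WT Ctr and 573, 574, 596 and 595 CPM in WNK2- Ctr. With sorbitol it measured 285, 264, 286 and 278 CPM in WT Sor and 457, 463, 493 and 499 CPM in WNK2- Sor. Each WNK2- library lay well above every parental library in either medium. The mean rose from 314 ± 23.7 to 585 ± 12.7 CPM (SD, n = 4), a log2 change of 0.90 ± 0.08 (adjusted p = 7.34e-10), and in sorbitol the log2 change was 0.78 ± 0.08 (adjusted p = 4.94e-09). The 58 tested genes within 5 Mb of TXNRD1 had a median log2 difference of −0.02 in isotonic medium and 0.17 in sorbitol. Within 2 Mb the 19 tested genes had medians of 0.08 (5 higher and 3 lower) and 0.24 (8 higher and 2 lower). The part of this region was not tested. The promoter elements of TXNRD1 are printed above.

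SRXN1 (ENSG00000271303, chromosome 20, 646615 to 653370, minus strand) encodes sulfiredoxin, which repairs overoxidised peroxiredoxins. It was listed at 0 in every library. A protein-coding gene of another identifier (ENSG00000270299) overlaps nearly all of it on the same strand and held 14 to 71 reads. Among the 115 members, listed genes and markers, 13 were at 0 in every library, and 11 of these are overlapped by another gene in GENCODE 29. They include genes that most cells use, such as PRDX2, which others overlap, and GPX1 and PRDX6, which none overlaps, so a listed 0 cannot be read as no transcript.

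NQO1 (ENSG00000181019, chromosome 16, 69706996 to 69726951, minus strand), a quinone reductase and a widely used marker of NRF2 activity, was higher in every WNK2- library than in any parental one. It measured 102, 111, 85.6 and 81.5 CPM in WT Ctr and 265, 232, 218 and 226 CPM in WNK2- Ctr. In sorbitol it measured 90.9, 76.0, 86.4 and 98.6 CPM in WT and 182, 196, 209 and 207 CPM in WNK2- cells. The lowest WNK2- library, at 182 CPM, lay above the highest parental library of any group, at 143 CPM. The log2 changes were 1.30 ± 0.11 (adjusted p = 1.1e-09) in isotonic medium and 1.17 ± 0.11 (adjusted p = 3.91e-09) in sorbitol. The 129 tested genes within 5 Mb had medians of 0.0096 and 0.06. Within 2 Mb the 53 tested genes had medians of 0.13 (15 higher and 5 lower) and 0.10 (13 higher and 8 lower). The part of this neighbourhood was not tested.

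OSGIN1 (ENSG00000140961, chromosome 16, 83948282 to 83966332, plus strand), an oxidative stress-induced growth inhibitor, was low in all parental groups. It measured 6.43, 4.39, 3.12 and 5.78 CPM in WT Ctr and 18.6, 14.0, 13.3 and 13.3 CPM in WNK2- Ctr. In sorbitol it measured 4.98, 6.12, 4.03 and 4.11 CPM in WT and 18.2, 26.0, 20.4 and 23.7 CPM in WNK2- cells. No WNK2- library overlapped the parental ones. The log2 changes, the largest of the 9 genes in both media, were 1.59 ± 0.26 (adjusted p = 2.19e-05) and 2.2 ± 0.26 (adjusted p = 1.18e-07). Of 74 tested genes within 5 Mb of OSGIN1, 27 were higher and 7 lower in WNK2- Ctr, with a median of 0.27, and the part of this region in the result was not tested.

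SLC7A11 (ENSG00000151012, chromosome 4, 138164097 to 138242349, minus strand) encodes the cystine importer subunit xCT, which supplies cysteine for glutathione. It measured 7.09, 5.42, 12.5 and 16.0 CPM in WT Ctr and 15.8, 28.96, 33.8 and 34.4 CPM in WNK2- Ctr, so that the lowest WNK2- library lay just below the highest WT one. In sorbitol it measured 28.8, 30.1, 28.1 and 20.7 CPM in WT and 24.4, 18.2, 23.4 and 29.4 CPM in WNK2- cells, which overlapped. The log2 change was 1.47 ± 0.33 (adjusted p = 0.000977) in isotonic medium and −0.17 (95% interval −0.80 to 0.45, adjusted p = 0.689) in sorbitol. The antisense gene SLC7A11-AS1 overlaps it and held 0 to 12 reads.

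GCLM (ENSG00000023909, chromosome 1, 93885205 to 93909456, minus strand), the modifier subunit of the enzyme for the first step of glutathione synthesis, differed less. It measured 57.0, 74.0, 67.6 and 60.8 CPM in WT Ctr and a narrow 78.6, 76.2, 78.7 and 80.4 CPM in WNK2- Ctr. With sorbitol it measured 56.3, 52.0, 55.5 and 52.6 CPM in WT and 85.6, 67.1, 88.8 and 78.5 CPM in WNK2- cells. The WNK2- libraries lay above the WT ones in both media. The log2 change was 0.28 ± 0.10 (adjusted p = 0.0275) in isotonic medium and 0.56 ± 0.10 (adjusted p = 4.4e-05) in sorbitol. The isotonic call was lost without WT Ctr replicate 1 or 4 or WNK2- Ctr replicate 4 (0.21 to 0.26, adjusted p = 0.0584 to 0.105), with no count filter and in a fit of the compared groups alone (adjusted p = 0.0503 and 0.0597).

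GCLC (ENSG00000001084, chromosome 6, 53497341 to 53616970, minus strand), the catalytic subunit of the same enzyme, did not pass the test. It measured 35.4, 45.3, 39.6 and 41.6 CPM in WT Ctr and 33.2, 36.5, 36.4 and 32.8 CPM in WNK2- Ctr. The levels in sorbitol were 40.1, 35.1, 36.9 and 34.4 CPM in WT and 35.7, 34.7, 38.7 and 36.5 CPM in WNK2- cells. The ranges overlapped, with log2 differences of −0.22 (95% interval −0.44 to 0.00, adjusted p = 0.122) and −0.01 (95% interval −0.23 to 0.21, adjusted p = 0.964), although the isotonic difference with the GC and length adjustment was −0.36 (adjusted p = 0.00258).

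HMOX1 (ENSG00000100292, chromosome 22, 35380361 to 35394214, plus strand), the inducible heme oxygenase, measured 31.3, 18.2, 18.6 and 23.7 CPM in WT Ctr and 28.6, 24.2, 20.6 and 21.9 CPM in WNK2- Ctr, with a log2 difference of 0.05 (95% interval −0.26 to 0.36, adjusted p = 0.816). In sorbitol it measured 25.9, 25.4, 23.5 and 25.4 CPM in a narrow WT group and 30.4, 41.7, 28.1 and 36.1 CPM in WNK2- cells, all 4 above WT. The log2 change in sorbitol was 0.45 ± 0.16 (adjusted p = 0.0215). Without WT Sor replicate 3 or WNK2- Sor replicate 2 or 4 the call was lost (0.33 to 0.42, adjusted p = 0.0542 to 0.102).

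**Figure D2:**
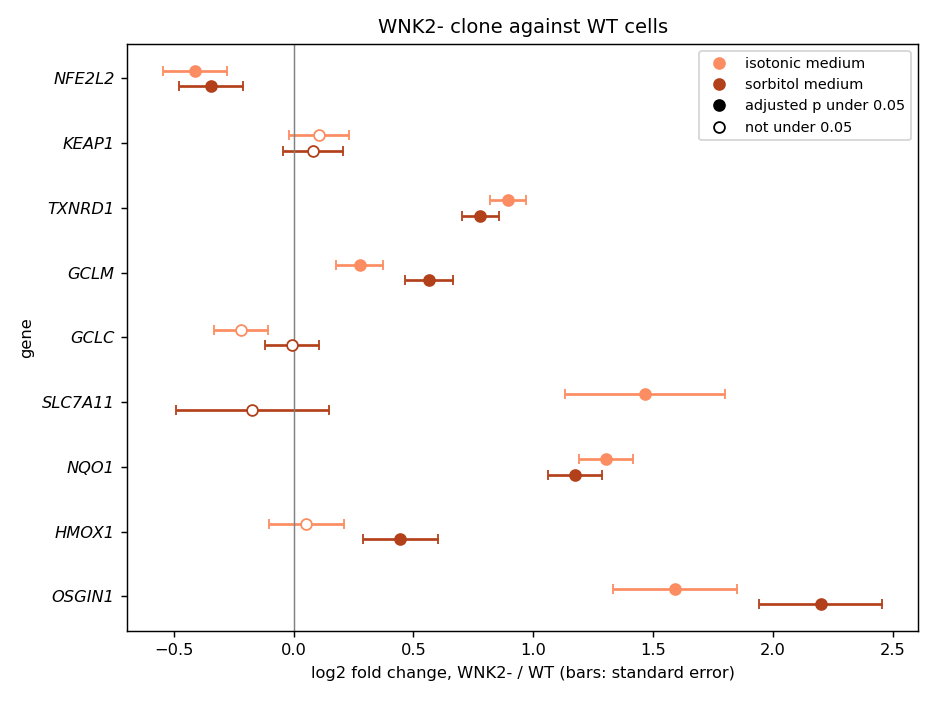
Log2 fold change of the WNK2- clone against WT cells (horizontal axis) for each gene (vertical axis) in isotonic and sorbitol medium, with the standard error as bars and filled points for an adjusted p under 0.05. OSGIN1, NQO1 and TXNRD1 lie far to the right in both media, NFE2L2 lies left of 0, and SLC7A11 is far right in isotonic medium alone.

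Because WNK2 counts go against the labels of the isotonic parental libraries, the WNK2- Ctr levels were also read beside the libraries labelled WNK2 trans Ctr, with no test. TXNRD1 measured 311, 275, 265 and 314 CPM there, NQO1 104, 104, 143 and 117 CPM and OSGIN1 3.66, 5.62, 6.80 and 4.69 CPM. All of these lay below every WNK2- Ctr library. NFE2L2 measured 165, 167, 161 and 150.2 CPM there, above every WNK2- Ctr library, and GCLM 58.5, 51.3, 43.8 and 56.0 CPM, below every WNK2- Ctr library. SLC7A11 measured 24.9, 20.8, 7.96 and 24.3 CPM and overlapped WNK2- Ctr. The separation of these genes except SLC7A11 was thus seen against either set of isotonic parental libraries, and the sorbitol comparison of the genotypes uses neither set. When both isotonic parental sets were left out of the fit, the members called in sorbitol were again 6, while the genes called went from 7690 to 8583. That fit compares the same WNK2- Sor and WT Sor libraries, so it cannot check their labels.

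The changes with chronic sorbitol were read in each background beside the share of all genes called. In WT cells SLC7A11 rose 2.63-fold and no other tested member passed the threshold. In WNK2- cells TXNRD1 fell and HMOX1 rose, both by less than 1.5-fold. In the libraries labelled WNK2 trans, GCLM rose and KEAP1, TXNRD1, NQO1 and HMOX1 fell. In WT cells 1 of the 9 genes changed, and it was higher, where 24.1% of all genes tested changed (11.4% higher and 12.7% lower). In WNK2- cells 2 changed, 1 in each direction, where 14.9% of all genes changed (8.25% higher and 6.64% lower). Under the WNK2 trans labels 5 changed, 1 higher and 4 lower, where 48% of all genes changed (24.3% higher and 23.7% lower). The median log2 difference of the 9 genes was −0.09 in WT, −0.02 in WNK2- and −0.30 under the WNK2 trans labels, beside 0.04, 0.0047 and 0.0064 over all genes tested.

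SLC7A11 was the only tested member called with sorbitol in WT cells. The 20.7 to 30.1 CPM of WT Sor lay above the 5.42 to 16.0 CPM of WT Ctr, with a log2 change of 1.40 ± 0.34 (adjusted p = 0.00371). The WT Sor range overlapped the libraries labelled WNK2 trans Ctr, where 3 libraries held 20.8 to 24.9 CPM and 1 held 7.96 CPM. In WNK2- cells SLC7A11 was at 15.8 to 34.4 CPM in isotonic medium, and the sorbitol difference was −0.25 (95% interval −0.87 to 0.38, adjusted p = 0.683). The sorbitol changes of the genotypes differed by −1.64 ± 0.46 (adjusted p = 0.0269) on the log2 scale, the 1 member of 9 with a called difference, where 8.65% of all genes had one (3.99% higher and 4.66% lower). This call was lost without WT Ctr replicate 2, WT Sor replicate 2, WNK2- Ctr replicate 3 or 4, or WNK2- Sor replicate 3 (−1.63 to −1.44, adjusted p = 0.053 to 0.0622). With the GC and length adjustment HMOX1 (0.50, adjusted p = 0.0103) and OSGIN1 (0.95, adjusted p = 0.00915) had a called difference too.

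TXNRD1 fell with sorbitol in WNK2- cells by a log2 change of −0.29 ± 0.08 (adjusted p = 0.00863), from 573 to 596 CPM to 457 to 499 CPM, with no overlap. In WT cells its difference was −0.18 (95% interval −0.32 to −0.03, adjusted p = 0.0922), and the test of the difference between genotypes gave −0.12 (95% interval −0.32 to 0.09, adjusted p = 0.552). TXNRD1 thus stayed higher in WNK2- cells in both media while its level with sorbitol was lower. HMOX1 rose in WNK2- cells by 0.52 ± 0.16 (adjusted p = 0.0235), with ranges that overlapped by 1 library on each side. That call was lost without WNK2- Ctr replicate 2, 3 or 4 or WNK2- Sor replicate 2 or 4 (0.40 to 0.52, adjusted p = 0.0554 to 0.106). OSGIN1 gave 0.58 (95% interval 0.11 to 1.04, adjusted p = 0.112) and NQO1 −0.24 (95% interval −0.46 to −0.03, adjusted p = 0.154) in WNK2- cells, and both were called in a fit of these groups alone (adjusted p = 0.00258 and 0.0189) and with the GC and length adjustment (0.64 and −0.38, adjusted p = 0.0028 and 0.00442). GCLM in WT cells lay lower in all 4 sorbitol libraries, at −0.26 (95% interval −0.46 to −0.07, adjusted p = 0.0574), and DESeq2 called it (−0.26, adjusted p = 0.0421). With the GC and length adjustment, which moved the median of all genes by −0.13, KEAP1, TXNRD1, GCLM and GCLC were lower with sorbitol in WT cells (−0.25 to −0.22, adjusted p = 0.00249 to 0.0455).

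Under the WNK2 trans labels GCLM measured 73.4, 84.8, 76.5 and 82.3 CPM with sorbitol, above the 43.8 to 58.5 CPM without it. The log2 change was 0.60 ± 0.10 (adjusted p = 2.44e-05). The 29 tested genes within 2 Mb of GCLM had a median of 0.38, 15 of them higher and 1 lower, and the part of this neighbourhood was not tested. GCLC, its partner subunit, measured 34.4, 45.5, 40.1 and 28.6 CPM with sorbitol, a difference of −0.12 (95% interval −0.34 to 0.10, adjusted p = 0.386).

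NQO1 fell to 72.4, 64.7, 73.3 and 62.6 CPM in WNK2 trans Sor, below all other libraries among the 24 read here. Its log2 change against WNK2 trans Ctr was −0.78 ± 0.11 (adjusted p = 3.66e-06). HMOX1 measured 26.6, 23.5, 32.5 and 28.5 CPM in WNK2 trans Ctr and 20.2, 15.1, 17.6 and 15.3 CPM in WNK2 trans Sor, a log2 change of −0.70 ± 0.16 (adjusted p = 0.000763). TXNRD1 fell to 219.9, 239, 260.5 and 228 CPM, a log2 change of −0.30 ± 0.08 (adjusted p = 0.0023). The groups did not overlap for any of the 3 genes.

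KEAP1 measured 142, 149, 193 and 174 CPM in WNK2 trans Ctr and 133, 88.0, 120.3 and 125 CPM in WNK2 trans Sor, a log2 change of −0.50 ± 0.13 (adjusted p = 0.00209). Its 88 tested neighbours within 2 Mb had a median of −0.43, with 4 higher and 40 lower. With the GC and length adjustment the change of KEAP1 was −0.13 (adjusted p = 0.130), and it no longer passed the threshold. NFE2L2 measured 114, 153, 148 and 148 CPM with sorbitol, a difference of −0.19 (95% interval −0.45 to 0.07, adjusted p = 0.237). SLC7A11 measured 7.40, 13.7, 20.9 and 14.0 CPM and OSGIN1 7.47, 2.35, 4.55 and 6.65 CPM, and neither passed the threshold, at −0.47 (adjusted p = 0.246) and 0.01 (adjusted p = 0.987). The GC and length adjustment brought 4 other genes past the threshold here, NFE2L2 at −0.43 (adjusted p = 0.00166), GCLC at −0.40 (adjusted p = 0.000855), SLC7A11 at −0.72 (adjusted p = 0.0182) and OSGIN1 at 0.52 (adjusted p = 0.0165).

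**Figure D3:**
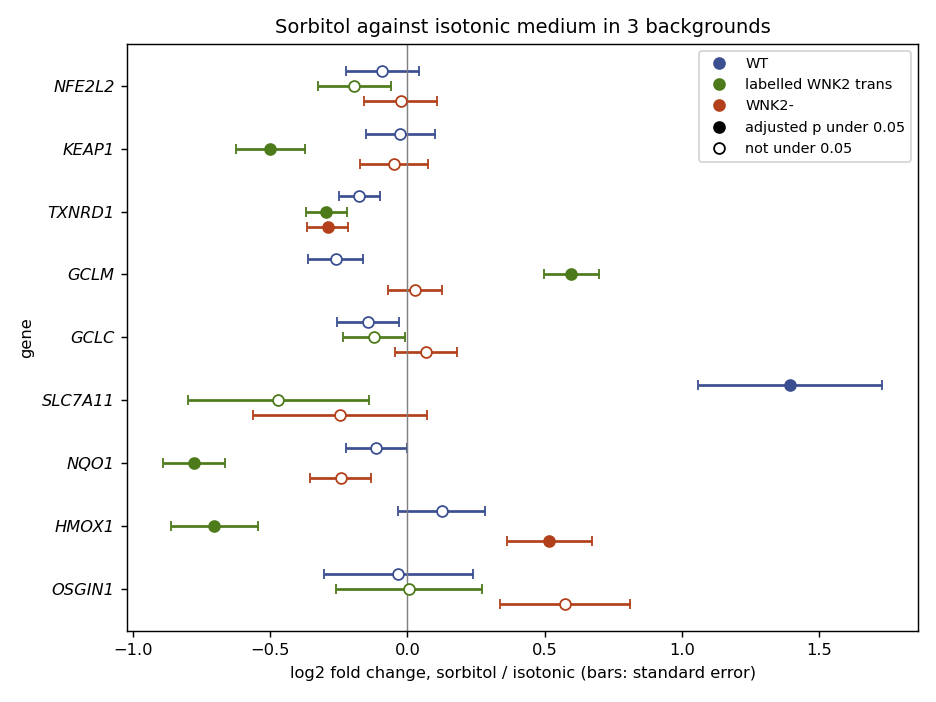
Log2 fold change of sorbitol against isotonic medium (horizontal axis) for each gene (vertical axis) in WT cells, in libraries labelled WNK2 trans and in WNK2- cells, with the standard error as bars and filled points for an adjusted p under 0.05. SLC7A11 is called in WT cells, TXNRD1 and HMOX1 in WNK2- cells, and GCLM, KEAP1, TXNRD1, NQO1 and HMOX1 under the WNK2 trans labels.

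Between the transfection labels GCLM was called among the isotonic libraries, and GCLM, TXNRD1, NQO1, HMOX1 and SLC7A11 among the sorbitol libraries. In isotonic medium 1 of the 9 genes changed and was lower, where 12.5% of all genes changed (5.57% higher and 6.98% lower). It was GCLM, at −0.31 ± 0.10 (adjusted p = 0.0425) with overlapping ranges. This call was lost without WT Ctr replicate 2 or 3 or WNK2 trans Ctr replicate 2, 3 or 4 (−0.33 to −0.23, adjusted p = 0.0568 to 0.169), with no count filter (adjusted p = 0.120) and in a fit of these groups alone (adjusted p = 0.237). NQO1 gave 0.30 (95% interval 0.08 to 0.52, adjusted p = 0.0833) and SLC7A11 0.93 (95% interval 0.27 to 1.59, adjusted p = 0.0711), and both passed with the GC and length adjustment (0.37 and 0.96, adjusted p = 0.00952 and 0.0108). The median of the 9 genes was 0.12, beside 0.0070 over all genes tested.

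In sorbitol 5 of the 9 genes changed between WNK2 trans Sor and WT Sor, 1 higher and 4 lower, where 31.7% of all genes changed (16.1% higher and 15.5% lower). WNK2 was higher in WNK2 trans Sor than in WT Sor, in the order of their labels. WT Sor, however, held no more WNK2 than the WNK2- libraries. GCLM was higher in all 4 WNK2 trans Sor libraries, with a log2 change of 0.55 ± 0.10 (adjusted p = 0.000141). NQO1 (−0.37 ± 0.11, adjusted p = 0.0146), HMOX1 (−0.56 ± 0.16, adjusted p = 0.00939) and TXNRD1 (−0.23 ± 0.08, adjusted p = 0.0211) were lower without overlap. The NQO1 call was lost without WT Sor replicate 4 (−0.32, adjusted p = 0.0519), and that of TXNRD1 without WT Sor replicate 1 or WNK2 trans Sor replicate 4 (−0.22, adjusted p = 0.0532 and 0.0512) and with no count filter (adjusted p = 0.0548). SLC7A11 was lower at −0.94 ± 0.33 (adjusted p = 0.031), a call lost without any of WT Sor replicates 1, 2 and 3 or WNK2 trans Sor replicates 1, 2 and 4 (−0.94 to −0.75, adjusted p = 0.0576 to 0.074). KEAP1 did not overlap but missed the threshold, at −0.30 (95% interval −0.55 to −0.05, adjusted p = 0.0709). OSGIN1, at 0.13 (95% interval −0.40 to 0.65, adjusted p = 0.754), was 0.65 (adjusted p = 0.0068) with the GC and length adjustment. The median of the 9 genes was −0.23, beside 0.01 over all genes tested.

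The sorbitol changes themselves differed between the WNK2 trans labels and WT cells for 5 of the 9 genes, 1 higher and 4 lower, where 35.5% of all genes differed (18.1% higher and 17.4% lower). The differences of the log2 changes were 0.86 ± 0.14 (adjusted p = 3.44e-05) for GCLM, −0.66 ± 0.16 (adjusted p = 0.002) for NQO1, −0.83 ± 0.22 (adjusted p = 0.00548) for HMOX1 and −1.86 ± 0.47 (adjusted p = 0.00314) for SLC7A11. That of KEAP1 was −0.47 ± 0.18 (adjusted p = 0.0403), and it was lost without any 1 of 9 libraries (−0.49 to −0.37, adjusted p = 0.0516 to 0.0947) and in a fit of these groups alone (adjusted p = 0.073), and turned to 0.09 (adjusted p = 0.527) with the GC and length adjustment. The 9 libraries were WT Ctr replicates 2, 3 and 4, WT Sor replicates 1, 2 and 4, WNK2 trans Ctr replicates 3 and 4 and WNK2 trans Sor replicate 2. That adjustment also brought TXNRD1 (−0.30, adjusted p = 0.00919) and OSGIN1 (0.83, adjusted p = 0.0131) past the threshold. The median over the 9 genes was −0.12, beside 0.0055 over all genes tested. These differences rest on the isotonic libraries whose WNK2 counts go against their labels. Read beside the libraries labelled WT Ctr instead, with no test, NQO1 in WNK2 trans Sor still lay below all 4, whereas GCLM (73.4 to 84.8 against 57.0 to 74.0 CPM) and HMOX1 (15.1 to 20.2 against 18.3 to 31.3 CPM) overlapped.

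In order of level, the parental groups of TXNRD1 and NQO1 overlapped their neighbours except WNK2 trans Sor, which was lowest and apart. For OSGIN1 the 4 parental groups, with means of 4.81 to 5.25 CPM, were not separated, and the 2 WNK2- groups overlapped each other. For GCLC no group was separated from its neighbour in the order, over means of 34.8 to 40.5 CPM. For NFE2L2 the 2 WNK2- groups had the lowest means, and WNK2- Ctr was separate from WT Sor, the next in the order, while WNK2- Sor overlapped it.

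Over the 24 libraries the log2 levels of TXNRD1, NQO1 and OSGIN1 moved together, with Pearson's r of 0.94 for TXNRD1 and NQO1, 0.84 for NQO1 and OSGIN1 and 0.79 for TXNRD1 and OSGIN1. OSGIN1 and NFE2L2 moved oppositely (−0.79). GCLM and GCLC, the subunits of 1 enzyme, gave −0.11. The tested genes with the closest pattern were TAGLN (0.98), DCTD and CA12 for NQO1, EIF2S3 (0.95), FAM120A and ZNF275 for TXNRD1, VARS1 (0.96), TTLL12 and TUBB6 for OSGIN1, and ZNF621 (0.96), POLR1B and NAA15 for GCLM. For SLC7A11 they were ATP11A (0.93), RNF213 and KMT2C, for KEAP1 PLIN3 (0.95), for NFE2L2 RBM39 (0.93) and for HMOX1 CDR2L (0.87). GCLC had no close match (CEBPZ, 0.79). These values describe 24 libraries that share 6 groups, and they carry no test.

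Other genes of the pathway moved in both directions. Of 72 listed genes for NRF2 partners, glutathione, thioredoxin, quinone and aldehyde handling, NADPH supply, heme and iron, and superoxide and peroxide removal, 58 were tested. In WNK2- against WT cells 12 were higher and 16 lower in isotonic medium (48.3% of the 58, where 42.1% of all genes tested changed) and 12 higher and 17 lower in sorbitol (50%, where 46.3% of all genes changed). Their median log2 difference was −0.12 in isotonic medium and 0.0069 in sorbitol, beside the 0.0020 and 0.02 of all genes tested. With sorbitol 9 were higher and 15 lower in WT cells (41.4%, beside 24.1% of all genes), 10 higher and 5 lower in WNK2- cells (25.9%, beside 14.9%), and 14 higher and 23 lower under the WNK2 trans labels (63.8%, beside 48%).

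Among the 10 tested thioredoxin and peroxiredoxin genes, TXNRD2, the mitochondrial counterpart of TXNRD1, was higher in WNK2- cells in isotonic medium (log2 change 0.79, adjusted p = 0.000679) and in sorbitol (1.03, adjusted p = 2.54e-05). The thioredoxin inhibitor TXNIP was lower in WNK2- Ctr (−0.80, adjusted p = 1.79e-05), as was PRDX4 (−0.38, adjusted p = 0.0178). In sorbitol PRDX5 was lower (−0.90, adjusted p = 0.00439) and PRDX1 higher (0.71, adjusted p = 1.57e-05). Of the 10 genes, 2 were higher and 4 lower in WNK2- Ctr (median −0.34), where 20.7% of all genes were higher and 21.5% lower. In WNK2- Sor 3 were higher and 3 lower (median −0.02), where 23.7% of all genes were higher and 22.7% lower. In the 9 tested genes of glutathione use, 2 were higher and 1 lower in WNK2- Ctr, where 20.7% of all genes were higher and 21.5% lower. In WNK2- Sor 3 were higher and 1 lower, where 23.7% of all genes were higher and 22.7% lower. The largest changes in WNK2- Sor were those of the secreted peroxidase GPX3 (1.30, adjusted p = 1.33e-09) and the transferase GSTO1 (1.26, adjusted p = 9.64e-09). GSS, which completes glutathione, was lower in WNK2- Ctr (−0.49, adjusted p = 0.000469), although its range there (99.6 to 116 CPM) overlapped that of WNK2 trans Ctr (107 to 158 CPM). Of the 3 tested superoxide and peroxide enzymes, mitochondrial SOD2 and catalase (CAT) were lower in both media, SOD2 at −1.74 (adjusted p = 3.03e-14) and −1.16 (adjusted p = 2.08e-11). The third, cytosolic SOD1, was higher in WNK2- Sor (0.55, adjusted p = 0.00127).

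Aldose reductase, AKR1B1, which makes sorbitol from glucose and is known as a gene of the osmotic response, rose with sorbitol, and in WT cells its relatives AKR1C1 (2.21, adjusted p = 4.54e-06) and AKR1B10 (1.67, adjusted p = 0.0319), both low, changed more on the log2 scale. AKR1B1 rose from 457 ± 79.9 to 1291 ± 16.6 CPM in WT cells and from 556 ± 34.5 to 2502 ± 34.2 CPM in WNK2- cells (SD, n = 4). The log2 changes were 1.5 (adjusted p = 8.44e-10) and 2.17 (adjusted p = 5.61e-13), and their difference was 0.67 (adjusted p = 0.00729). In the NADPH list of 6 genes, 1 was higher and 3 lower with sorbitol in WT cells, where 11.4% of all genes were higher and 12.7% lower. In WNK2- cells 1 was higher and 1 lower, where 8.25% of all genes were higher and 6.64% lower. The pentose phosphate enzymes TALDO1 (−0.52, adjusted p = 0.00244) and PGD (−0.40, adjusted p = 0.00306) fell in WT cells and TKT (−0.63, adjusted p = 3.46e-05) fell in WNK2- cells. PGD averaged 139 CPM in WT Sor and 182 CPM in WT Ctr but 137 CPM in WNK2 trans Ctr, so its fall was seen against the libraries labelled WT Ctr alone. The malic enzyme ME1 rose with sorbitol in WT (0.82, adjusted p = 7.37e-06) and WNK2- cells (1.15, adjusted p = 3e-08), while the isocitrate dehydrogenase IDH1 was lower in WNK2- cells in isotonic medium (−0.88, adjusted p = 2.79e-08) and sorbitol (−0.82, adjusted p = 4.94e-08). Of the 8 tested heme and iron genes, the iron exporter SLC40A1 was lower in WNK2- cells in both media (−1.82, adjusted p = 2.75e-07, and −1.79, adjusted p = 3.05e-07), and the ferritin light chain FTL was higher in WNK2- Sor (0.91, adjusted p = 2.16e-05). Of the 8 NRF2 partners and controls, SQSTM1, which binds KEAP1, rose with sorbitol in WT (0.36, adjusted p = 0.0132) and WNK2- cells (0.60, adjusted p = 0.000215). Its WT Sor range (458 to 483 CPM) overlapped that of WNK2 trans Ctr (402 to 485 CPM). No gene of this list passed the threshold as higher in WNK2- than in WT cells, where 20.7% of all genes did in isotonic medium and 23.7% in sorbitol. As lower, 1 passed in isotonic medium and 2 in sorbitol, beside 21.5% and 22.7% of all genes.

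SLC7A11 is also a target of ATF4, the factor of the amino acid stress response, so 11 other ATF4 genes were read beside it, 9 of them tested. With sorbitol in WT cells, where SLC7A11 rose, 5 of the 9 were higher and 0 lower, where 11.4% of all genes were higher and 12.7% lower, with a median of 0.33 beside 0.04 over all genes tested, led by CHAC1 (1.85, adjusted p = 2.57e-05), which degrades glutathione, and DDIT4 (1.25, adjusted p = 0.000169), an inhibitor of mTORC1. DDIT4 averaged 94.2 CPM in WT Sor, 39.7 CPM in WT Ctr and 90.7 CPM in WNK2 trans Ctr, so that it overlapped the latter, whereas CHAC1 (38.2 to 41.5 CPM in WT Sor) lay above both isotonic parental sets (5.67 to 17.5 and 12.2 to 23.1 CPM). With sorbitol in WNK2- cells 0 were higher and 3 lower, where 8.25% of all genes were higher and 6.64% lower. Between WNK2- Sor and WT Sor 7 of the 9 were lower and 0 higher, where 22.7% of all genes were lower and 23.7% higher, with a median of −0.77 beside 0.02 over all genes tested and DDIT4 at −2.44 (adjusted p = 1.97e-09), beside the difference of −0.17 for SLC7A11. WNK2 trans Sor against WT Sor gave 7 lower and 0 higher too, where 15.5% of all genes were lower and 16.1% higher, with a median of −0.54 beside 0.01. With sorbitol under the WNK2 trans labels 1 was higher and 3 lower, beside 24.3% and 23.7% of all genes. Between WNK2- Ctr and WT Ctr, where SLC7A11 was higher, 3 were higher and 2 lower, beside 20.7% and 21.5% of all genes. Between the isotonic WNK2 trans and WT labels DDIT4 alone of the 9 was called, higher by 1.19 (adjusted p = 0.000368). In that comparison 5.57% of all genes were higher and 6.98% lower.

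**Figure D4:**
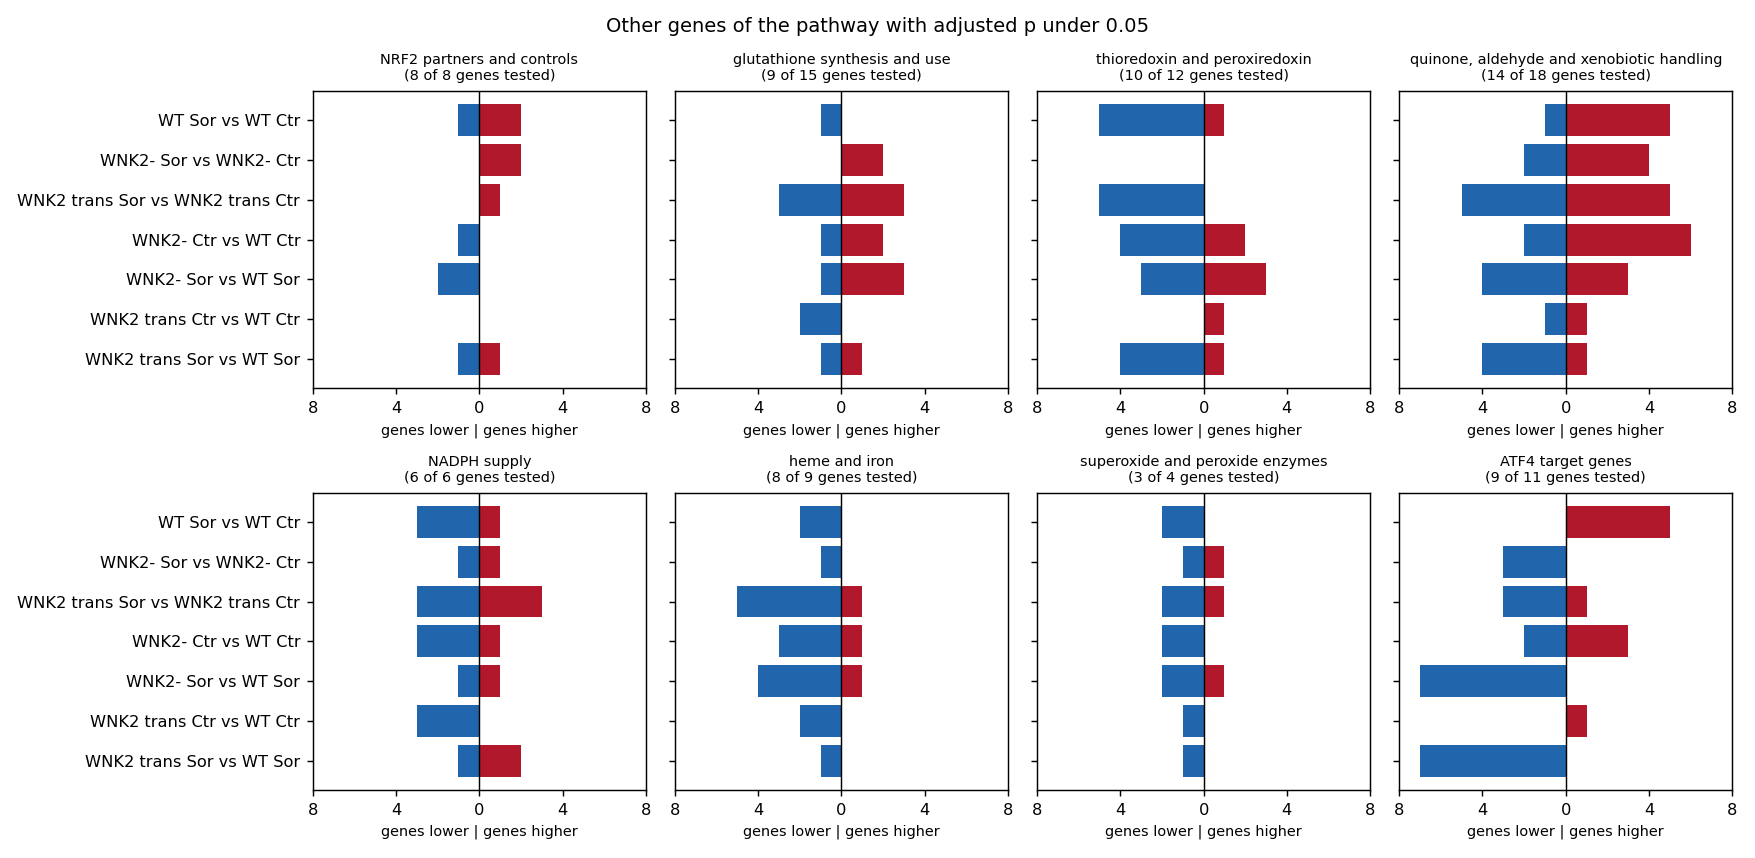
Number of listed genes with an adjusted p under 0.05 that were higher (red, to the right) or lower (blue, to the left) in each of 7 comparisons (vertical axis), 1 panel per list. The ATF4 panel shows 5 higher genes with sorbitol in WT cells and 7 lower genes in WNK2- Sor and in WNK2 trans Sor against WT Sor.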

How the data were processed

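Poly(A)-enriched RNA of 24 cultures, which the study calls biological replicates, was sequenced in 6 groups of 4. The authors deposited raw read counts per Ensembl gene for each library. The submitters' processing notes name FastQC 0.11.9, HISAT2 2.2.1, HTSeq 2.0.2, DESeq2 1.38.3 and GRCh38, whereas the methods of the study name other versions of HTSeq and DESeq2. The annotation release and the strand setting of the counting are not given in the sources used here. Of 62703 gene identifiers, 62625 matched a symbol and 78 did not, and GENCODE 29 held 58279.

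Counts were analysed with R 4.3.3, edgeR 4.0.16 and limma 3.58.1. Genes that passed filterByExpr (count of at least 10, total of at least 15) were scaled by TMM and fitted in 1 quasi-likelihood model of all 24 libraries without a replicate block, with two-sided tests and Benjamini-Hochberg adjustment over the 16600 genes tested. The standard error of a log2 change was taken as its size over the square root of F. Log2 CPM for likeness used a prior count of 2, and fitted changes a prior count of 0.125. The fits were tested on simulated data.

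The members and lists were chosen with earlier results of these data known. Of each list, at most 3 genes per comparison with an adjusted p under 0.05 and the largest change were eligible to be named, and of the tested genes the 3 closest to each member by Pearson's r. Alternatives were DESeq2 1.42.0, RLE and upper-quartile factors, no filter or at least 10 counts in every library, the compared groups alone, a replicate block, thinning to 14153002 counts, a spline correction (5 degrees of freedom) for GC content and length, known for 96.3% of genes tested, leaving out the isotonic parental libraries, and leaving out each library in turn. Library totals of 14153002 to 25664619 limit the precision of low genes, and all 36 pairs of replicates differed by more than counting noise.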

Additional observations from a re-analysis of the deposited data

Results flagged for a closer look

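In 54 groups of 4 libraries (9 genes in 6 groups), 3 held 1 library far from the rest by Dixon's criterion at 95%, which chance does in about 1 of 20 groups. NFE2L2 was lowest in WNK2 trans Sor replicate 1 at 114 CPM, beside 148 to 153 CPM in the others. WNK2- Ctr replicate 1 was highest for KEAP1, at 181 CPM beside 147 to 149.7 CPM, and for OSGIN1, at 18.6 CPM beside 13.3 to 14.0 CPM.

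For 6 results the sorbitol change differed between groups by a test of the difference itself (edgeR, with p adjusted over all genes tested). SLC7A11 rose with sorbitol in WT cells and not by the test in WNK2- cells, a difference of −1.64 on the log2 scale (adjusted p = 0.0269). Against WT cells, the sorbitol change under the WNK2 trans labels differed by 0.86 for GCLM (adjusted p = 3.44e-05), −1.86 for SLC7A11 (adjusted p = 0.00314), −0.83 for HMOX1 (adjusted p = 0.00548), −0.66 for NQO1 (adjusted p = 0.002) and −0.47 for KEAP1 (adjusted p = 0.0403). All 6 use isotonic parental libraries of the labels whose WNK2 counts conflict, the first those labelled WT Ctr and the other 5 both sets. SLC7A11 averaged 10.2 CPM in WT Ctr, 19.5 CPM in WNK2 trans Ctr and 26.9 CPM in WT Sor, and the part of the labels in these results was not tested.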

How the results depend on the processing

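Of 1548 alternative values of 81 member results, 1462 kept their side of the threshold, 53 lost a call, 32 gained one, and 1 call changed its sign, KEAP1 in the transfection by sorbitol difference (0.090 with the GC and length correction). Of the 1462, 92 values from 22 results changed sign while below the threshold in both fits. In 48 of the 81 results no alternative changed the call. The GC and length correction moved most counts. Members called went to 5 for sorbitol in WT cells (2 with DESeq2), 4 in WNK2- cells (also 4 with the compared groups alone), 8 under the WNK2 trans labels, 3 for the isotonic transfection labels and 3 for the genotype by sorbitol difference. Genes called went with it from 4008 to 6084 for sorbitol in WT cells (from 1893 higher and 2115 lower to 1743 and 4341), from 2473 to 4353 in WNK2- cells (from 1370 and 1103 to 1595 and 2758) and from 1436 to 2307 for the genotype by sorbitol difference (from 663 and 773 to 1353 and 954, and 372 and 796 without the filter). The same correction took genes called from 7972 to 9279 under the WNK2 trans labels and from 2082 to 3085 for the isotonic transfection labels. DESeq2 called 4552 genes for sorbitol in WT cells. With the compared groups alone 4824 genes were called for sorbitol in WNK2- cells, and 747 in place of 2082 for the isotonic transfection labels. For these labels 0 members were then called by edgeR (2 at an unadjusted p under 0.05), whereas edgeR and DESeq2 each called 1 in fits of all 24 libraries. The cause of these changes was not tested.

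Leaving out 1 library gave 1 to 3 members called for sorbitol in WT cells (of 2761 to 4259 genes called) and 1 to 2 in WNK2- cells (of 1840 to 2155). It gave 0 to 2 members for the isotonic transfection labels (of 1489 to 2684) and 3 to 5 for the sorbitol transfection labels (of 4032 to 6628). For the genotype by sorbitol difference it gave 0 to 1 (of 849 to 1908). In edgeR fits with 0 called, 1 to 3 members had an unadjusted p under 0.05. Without the libraries labelled WT Ctr and WNK2 trans Ctr, NQO1 was called for sorbitol in WNK2- cells (−0.26, adjusted p = 0.0383) and KEAP1 for WNK2 trans Sor against WT Sor (−0.31, adjusted p = 0.0285).

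Same-numbered replicates correlated between −0.273 and 0.223 in their deviations from the group means, so the numbers did not pair the samples. With the replicate block 0 members were called by edgeR for the isotonic transfection labels (3 at an unadjusted p under 0.05), GCLM standing at −0.31 (adjusted p = 0.0617), and the block changed no other member call. The standard errors of OSGIN1 and SLC7A11, 0.24 to 0.34 between groups, exceed those of the other members, and thinning to the smallest total left that of SLC7A11 for sorbitol in WT cells at 0.33 beside 0.34. The WT libraries held only 14153002 to 17588934 counts before thinning, so this cannot show how depth bears on that error.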
